A study of Drosophila melanogaster with 8 samples.

Results

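Insulin signalling was followed through 6 genes, chosen by their FlyBase symbols: the ligand Ilp6, the insulin antagonist ImpL2, the receptor InR, the adaptor chico, the transcription factor foxo and its target Thor. The deposited table held 15348 genes, and 5 of the 6 were matched to it by identifier. InR was not matched and is not analysed here. All 5 passed the filter of at least 1 CPM (normalized counts scaled to a common library size) in at least 1 library, which 10029 genes passed.

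Insulin-like peptides bind InR, which acts through the adaptor Chico, PI3-kinase and Akt to promote growth and to keep the transcription factor Foxo out of the nucleus. When signalling is low, Foxo switches on genes such as Thor, the fly eIF4E-binding protein, which holds back translation. ImpL2 is a secreted protein that binds insulin-like peptides and lowers signalling, and it is known from tumour-bearing flies as a factor through which a tumour can cause wasting of other tissues. Ilp6 is the insulin-like peptide known mainly from the larval fat body, where Foxo and ecdysone raise it.

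The RNA came from imaginal discs of wandering last-instar Drosophila melanogaster larvae, 50 to 60 pooled per genotype and raised at 25 °C, and each of the 8 groups had 1 library. The groups are given with their age after egg laying: RasV12 (UAS-Ras[V12], 5 days), BskDN (UAS-Bsk[DN], a dominant-negative form of the Jun kinase Basket, 11 days), scrib BskDN (6 days), RasV12 scrib BskDN (6 days), RasV12 scrib at 7 and at 11 days, scrib wing discs (6 days) and control (5 days). In the 7 eye-antennal groups the chromosomes carried y, w, eyflp, the act>y+>Gal4 cassette with UAS-GFP, and FRT82 e with tub-GAL80 over FRT82. The eyeless-driven recombinase made clones that lost Gal80, and Gal4 then switched on GFP and any transgene in those clones. In the scrib groups the other FRT82 chromosome carried a mutant allele of the polarity gene scrib, so that the clones were also scrib mutant. RasV12 scrib clones are known as a model of malignant growth in flies. The discs were mosaic, and each library mixed clone cells with their neighbours in an unknown share. The scrib wing discs differed: they came from larvae with scrib[2] over scrib[1] in every cell, without clones, Gal4 or a wing control, and their levels are given without a comparison of conditions.

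With 1 library per group there was no replicate error and no test, and differences between libraries cannot be extended to the conditions. Intervals are exact 95% intervals (Poisson for levels, conditional binomial for folds) and cover counting error only: no molecular identifiers are recorded in the labels, so reads may not count independent molecules. Age differed together with genotype, and their effects cannot be told apart except where ages match. In bulk RNA, fewer cells of a type and less RNA per cell cannot be told apart. A gene was called higher or lower where its log2 CPM, computed with a prior count of 2, differed by at least 2-fold and the higher library had at least 5 CPM. Folds given for single genes are ratios of normalized CPM without the prior count.

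Assigned counts were 17152279 to 21027972 per library, and a single count equalled 0.0473 to 0.0605 CPM after scaling. The transgenes could be seen in the RNA: bsk had 749, 1607 and 1891 CPM in the BskDN, scrib BskDN and RasV12 scrib BskDN libraries, against 92.4 to 109 CPM in the other libraries. Ras85D had 464, 426, 655 and 1181 CPM in the RasV12, RasV12 scrib BskDN, RasV12 scrib day 7 and day 11 libraries, and 252 to 284 CPM in the others. The scrib RNA was at 363 to 510 CPM throughout. The summed level of 7 eye disc genes was 508 to 1335 CPM in the eye-antennal libraries and 225 CPM in the scrib wing discs. In the wing discs vg, the defining wing gene, was at 2.18 CPM, against 1.45 CPM in control, so that the wing label is not borne out by vg. Muscle and hemocyte markers were highest in control: the sum of 8 matched muscle markers was 219 to 644 CPM in the other libraries, against 4812 CPM in control, and that of 10 hemocyte markers 440 to 1382 CPM, against 2198 CPM in control. Their part in the differences from control was not tested.

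ImpL2, the antagonist (FBgn0001257, chromosome 3L, 4224006 to 4236147, minus strand, BDGP6), was highest in the RasV12 scrib discs. Its level was 441 CPM in RasV12, 521 CPM in BskDN, 551 CPM in scrib BskDN, 569 CPM in RasV12 scrib BskDN, 1055 CPM in RasV12 scrib day 7, 2186 CPM in RasV12 scrib day 11, 736 CPM in the scrib wing discs and 475 CPM in control. The RasV12 scrib libraries without BskDN stood above the other 6, and the 5 other eye-antennal libraries lay close together. In the order of the 8 levels every library differed from its neighbours by more than counting error. That error leaves out the scaling. The 1.03-fold step between RasV12 scrib BskDN and scrib BskDN turned sign under upper quartile scaling and under total counts alone. The highest level was 4.96-fold the lowest, with an interval of 4.85 to 5.07. The annotation places another same-strand gene, CG46460, over 1651 exon bases of ImpL2. It has no row in the table, and how reads were assigned there is not known from the sources used here.

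**Figure D1:**
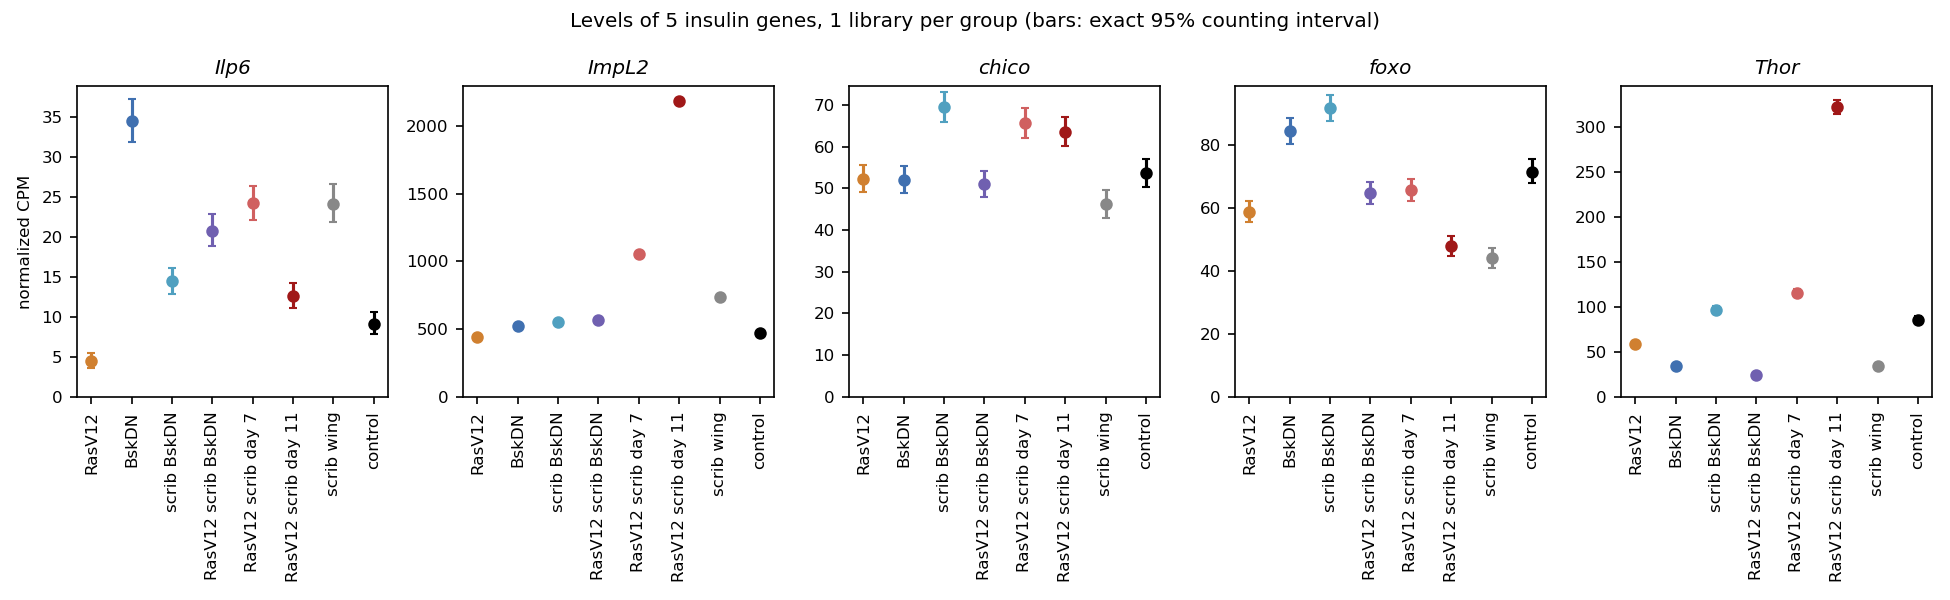
Normalized CPM of the 5 matched insulin genes in each of the 8 libraries, 1 panel per gene on a linear axis of its own from 0, with bars for the exact 95% Poisson intervals that cover counting error only. ImpL2 is highest in RasV12 scrib day 11 at 2186 CPM and Thor in the same library at 323 CPM, while chico and foxo stay within 46.2 to 69.4 CPM and 44.0 to 91.9 CPM.

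Ilp6, the ligand (FBgn0044047, chromosome X, 2331493 to 2334658, minus strand), was measured at 4.52 CPM in RasV12, 34.5 CPM in BskDN, 14.5 CPM in scrib BskDN, 20.8 CPM in RasV12 scrib BskDN, 24.2 CPM in RasV12 scrib day 7, 12.6 CPM in RasV12 scrib day 11, 24.2 CPM in the scrib wing discs and 9.18 CPM in control. RasV12 was the only library below control, and BskDN was the highest. These levels rest on 91 to 651 counts. RasV12 scrib day 7 and the wing discs did not differ beyond counting error, nor did scrib BskDN and RasV12 scrib day 11. The highest level was 7.63-fold the lowest, with an interval of 6.12 to 9.61. The Ilp6 span overlaps Raf on the opposite strand, with 0 shared exon bases.

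The adaptor and the transcription factor varied less than the other members. The level of chico (FBgn0024248, chromosome 2L, 10242512 to 10247078, minus strand), the insulin receptor substrate, was 52.2 CPM in RasV12, 52.1 CPM in BskDN, 69.4 CPM in scrib BskDN, 51.0 CPM in RasV12 scrib BskDN, 65.6 CPM in RasV12 scrib day 7, 63.6 CPM in RasV12 scrib day 11, 46.2 CPM in the scrib wing discs and 53.6 CPM in control. The highest level was 1.5-fold the lowest, with an interval of 1.37 to 1.64, and scrib BskDN, day 7 and day 11, the 3 highest, did not differ between neighbours in that order beyond counting error. Neither did control, RasV12, BskDN and RasV12 scrib BskDN. chico lies 423 bases from bsk on the same strand, and its level was 51.0 to 69.4 CPM in the 3 libraries with BskDN, against 52.2 to 65.6 CPM in the other eye-antennal libraries. It also shares 380 exon bases with an antisense RNA gene that has no row in the table, and whether the counting used strand is not known from the sources used here.

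The level of foxo (FBgn0038197, chromosome 3R, 14056945 to 14087978, plus strand) was 58.8 CPM in RasV12, 84.5 CPM in BskDN, 91.9 CPM in scrib BskDN, 64.7 CPM in RasV12 scrib BskDN, 65.8 CPM in RasV12 scrib day 7, 47.9 CPM in RasV12 scrib day 11, 44.0 CPM in the scrib wing discs and 71.6 CPM in control. BskDN and scrib BskDN stood above control and the others below it. The highest level was 2.09-fold the lowest, with an interval of 1.92 to 2.28. Neither chico nor foxo was called in any of the 12 comparisons.

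Thor (FBgn0261560, chromosome 2L, 3478434 to 3479612, plus strand) spread the most. Its level was 58.5 CPM in RasV12, 34.1 CPM in BskDN, 96.8 CPM in scrib BskDN, 24.4 CPM in RasV12 scrib BskDN, 116 CPM in RasV12 scrib day 7, 323 CPM in RasV12 scrib day 11, 34.6 CPM in the scrib wing discs and 85.8 CPM in control. It was highest in the RasV12 scrib libraries and lowest when BskDN was added to RasV12 scrib. BskDN and the wing discs did not differ beyond counting error. The highest level was 13.2-fold the lowest, with an interval of 12.1 to 14.5.

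Levels of different genes were compared per kilobase of exon. On the scale of CPM per kilobase, ImpL2 stood at 165 to 820, Thor at 32.3 to 427, chico at 12.9 to 19.4, foxo at 10.7 to 22.2 and Ilp6 at 1.87 to 14.3. ImpL2 was above each of the other 4 in all 8 libraries. On the per-kilobase scale ImpL2 was 157-fold the level of Ilp6 in RasV12 scrib day 11 (138 to 178), 88.2-fold in RasV12 (71.8 to 110), 39.4-fold in RasV12 scrib day 7 (36.1 to 43.1), 34.4-fold in scrib BskDN (30.7 to 38.7), 27.5-fold in the wing discs (24.9 to 30.5), 24.7-fold in RasV12 scrib BskDN (22.5 to 27.3), 13.7-fold in BskDN (12.6 to 14.8) and 46.8-fold in control (40.2 to 54.7). The ratio was above control in RasV12, where Ilp6 was lowest, and in day 11, where ImpL2 was highest. These are RNA ratios, and secreted protein was not measured.

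RasV12 scrib discs at 7 days differed from control in the ligand and the antagonist, both of which were higher. ImpL2 was at 1055 CPM in RasV12 scrib day 7, against 475 CPM in control, a fold of 2.22 (2.17 to 2.28), and 5.67% of the genes considered had a log2 fold at least as high. Ilp6 was 2.64-fold higher (2.22 to 3.16). Thor was 1.35-fold higher (1.27 to 1.44) and was not called. In all, 2 of the 5 members were called, where 11.3% of the genes considered were called.

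At 11 days the RasV12 scrib discs had both the antagonist and the Foxo target well above control. ImpL2 was at 2186 CPM in RasV12 scrib day 11, against 475 CPM in control, 4.60-fold (4.50 to 4.71), and 8.21% of genes had a log2 fold at least as high. Thor was at 323 CPM, against 85.8 CPM in control, 3.76-fold (3.56 to 3.97). Ilp6 was 1.37-fold higher (1.13 to 1.68) and foxo 1.49-fold lower (1.37 to 1.63), both uncalled. Here 2 members were called, against 17.9% of the genes considered. The sum of 7 fat body markers was 58.7 and 329 CPM in the day 7 and day 11 libraries, against 404 CPM in control. Of these markers 0 were higher and 6 lower in day 7 over control, and 1 higher and 5 lower in day 11 over control. Of all genes considered, 3.33% were higher and 7.98% lower in day 7, and 10.7% higher and 7.22% lower in day 11. The 1 marker higher in day 11 was apolpp, the lipophorin precursor. Its level was 27.2 and 257 CPM in the day 7 and day 11 libraries, against 28.7 CPM in control. Of 10 neuron markers 8 were higher and 0 lower in day 11 over control, and 0 higher and 1 lower in day 7. Of 8 glia markers 4 were higher and 1 lower in each of the 2 comparisons. The part of fat body, neuron or glia RNA in the ImpL2 and Thor levels was not tested. ImpL2 is also known as an ecdysone-inducible gene, and the summed level of 15 matched ecdysone response genes was 832 and 1106 CPM in the day 7 and day 11 libraries, against 3394 CPM in control. Of that list, 2 genes were higher and 6 lower in day 7 over control, beside 3.33% and 7.98% of all genes considered. In day 11 over control 3 were higher and 6 lower, beside 10.7% and 7.22% of all genes. Among the lower genes, ImpE2 was at 11.7 and 118 CPM in the day 7 and day 11 libraries. In control it was at 1926 CPM, 56.7% of the control sum. The higher genes were Cyp18a1 (log2 folds of 2.23 and 2.82), ftz-f1 (1.70 and 1.34) and, in day 11 only, Eip93F (2.73).

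The older RasV12 scrib discs had more of the antagonist and of the Foxo target than the younger ones. ImpL2 was 2.07-fold higher at day 11 than at day 7 (2.04 to 2.11) and Thor 2.78-fold higher (2.65 to 2.92). Ilp6 was at 12.6 CPM at day 11, against 24.2 CPM at day 7, 1.92-fold lower (1.65 to 2.24), which missed the threshold at a log2 fold of -0.94. The 2 called members stood beside 10.6% of the genes called, and 15.1% of genes had a log2 fold at least as high as that of ImpL2. The sum of neuron markers was 808 CPM at day 11, against 250 CPM at day 7, and the fat body sum 329 CPM at day 11, against 58.7 CPM at day 7. Their part in the result was not tested.

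**Figure D2:**
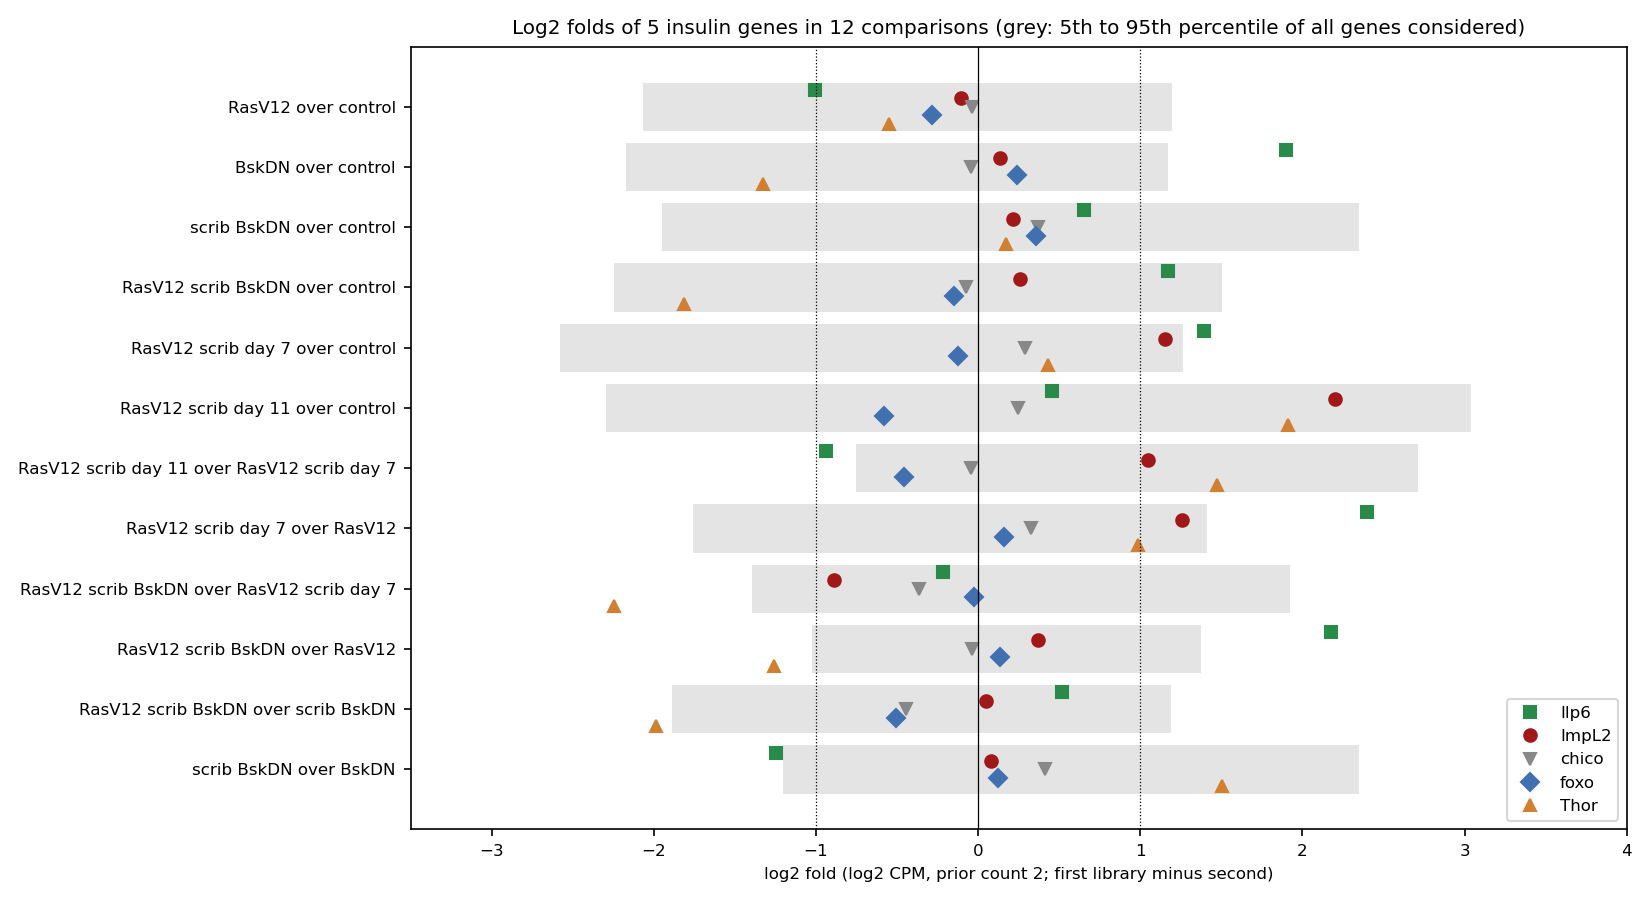
Log2 fold (log2 CPM with a prior count of 2, first library minus second) of the 5 insulin genes in 12 comparisons, with the range from the 5th to the 95th percentile of all 10029 genes considered in grey and the 2-fold threshold as dotted lines. Thor lies furthest to the left in RasV12 scrib BskDN over RasV12 scrib day 7, and Ilp6 furthest to the right in RasV12 scrib day 7 over RasV12.

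Adding the scrib mutation to RasV12 was compared at 7 and 5 days, so that age differs. ImpL2 was at 1055 CPM in RasV12 scrib day 7, against 441 CPM in RasV12, 2.39-fold (2.34 to 2.45). Ilp6 was at 24.2 CPM in RasV12 scrib day 7, against 4.52 CPM in RasV12, 5.36-fold (4.28 to 6.78), and 1.60% of genes had a log2 fold at least as high. Thor was 1.98-fold higher (1.85 to 2.12), just short of the threshold at a log2 fold of 0.98, and was called under median-of-ratios scaling and under total counts alone. The 2 called members stood beside 10.3% of the genes called. Markers of other tissues moved between these libraries. The fat body sum was 58.7 CPM in RasV12 scrib day 7, against 1339 CPM in RasV12, and that of 6 salivary gland markers 9.86 CPM, against 1392 CPM in RasV12. The hemocyte sum was 1356 CPM in RasV12 scrib day 7, against 440 CPM in RasV12, and the ecdysone response sum 832 CPM, against 3542 CPM in RasV12. Their part in the result was not tested.

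Blocking Jun kinase signalling in the RasV12 scrib clones was compared at 6 days with BskDN and 7 days without. Thor was at 24.4 CPM in RasV12 scrib BskDN, against 116 CPM in RasV12 scrib day 7, 4.76-fold lower (4.32 to 5.25), and 1.95% of genes had a log2 fold at least as low. ImpL2 was at 569 CPM in RasV12 scrib BskDN, against 1055 CPM in RasV12 scrib day 7, 1.85-fold lower (1.81 to 1.90), short of the threshold with a log2 fold of -0.89. Ilp6 and chico were 1.16-fold and 1.29-fold lower and uncalled. So 1 of 5 members was called, where 11.0% of the genes were. The ecdysone response sum was 4939 CPM in RasV12 scrib BskDN, against 832 CPM in RasV12 scrib day 7, and the fat body sum was 492 CPM in RasV12 scrib BskDN, against 58.7 CPM in day 7. The part of either in the result was not tested.

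RasV12 scrib BskDN also had less Thor than control, RasV12 and scrib BskDN. Over control Thor was 3.52-fold lower (3.19 to 3.90) and Ilp6 2.27-fold higher (1.90 to 2.72), while ImpL2 was 1.20-fold higher (1.17 to 1.23) and uncalled, so that 2 members were called beside 8.76% of the genes. Over RasV12, Thor was 2.40-fold lower (2.16 to 2.67) and Ilp6 4.61-fold higher (3.67 to 5.84), with 2 members called beside 4.64% of the genes. Over scrib BskDN, at the same age of 6 days, Thor was 3.97-fold lower (3.60 to 4.39) and was the 1 member called, beside 10.5% of the genes. ImpL2 differed by 1.03-fold there, and the sign of its log2 fold turned under other scalings.

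RasV12 alone, at the same 5 days as control, had less Ilp6. Ilp6 was at 4.52 CPM in RasV12, against 9.18 CPM in control, 2.03-fold lower (1.57 to 2.65). This call sits on the threshold, at a log2 fold of -1.01, and is lost under upper quartile scaling. Thor was 1.47-fold lower (1.36 to 1.58) and uncalled, and ImpL2 was at 441 CPM, against 475 CPM in control. The 1 called member stood beside 8.49% of the genes. The sum of 6 salivary gland markers was 1392 CPM in RasV12, against 43.2 CPM in control, and the fat body sum was 1339 CPM, against 404 CPM in control. The hemocyte sum was 440 CPM in RasV12, against 2198 CPM in control, and the muscle sum 405 CPM, against 4812 CPM in control. Their part in the result was not tested.

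The BskDN library had the highest Ilp6. Ilp6 was at 34.5 CPM in BskDN, against 9.18 CPM in control, 3.76-fold (3.17 to 4.47), and 1.77% of genes had a log2 fold at least as high. Thor was at 34.1 CPM in BskDN, against 85.8 CPM in control, 2.52-fold lower (2.29 to 2.76). ImpL2 was 1.10-fold and foxo 1.18-fold higher, both uncalled. The 2 called members stood beside 7.95% of the genes. The ecdysone response sum was 8534 CPM in BskDN, against 3394 CPM in control. The summed level of 7 fat body markers was 5525 CPM in BskDN, against 404 CPM in control, of which Fbp1 made up 3641 CPM in BskDN. Of these markers 4 were higher and 2, Lsp1gamma and Lsp1alpha, lower, where 2.96% of all genes considered were higher and 4.99% lower. Ilp6 is known to be made by fat body, and the part of these markers in the result was not tested.

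**Figure D3:**
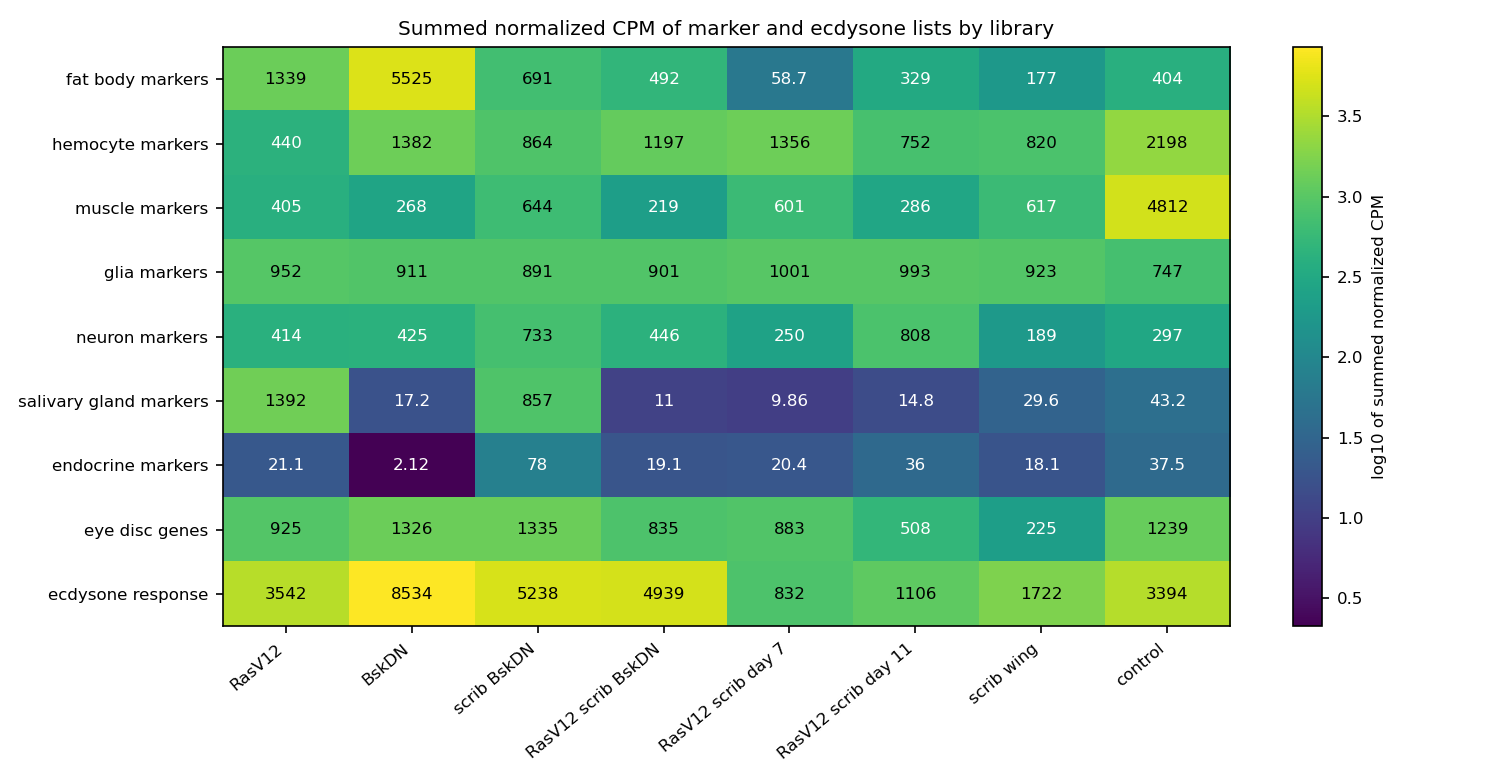
Heat map of the summed normalized CPM of tissue marker lists, eye disc genes and ecdysone response genes (rows) in each of the 8 libraries (columns), with the sum printed in each cell and the colour on a log10 scale. The fat body sum is highest in BskDN at 5525 CPM and lowest in RasV12 scrib day 7 at 58.7 CPM, and the muscle sum is highest in control at 4812 CPM.

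In scrib BskDN none of the 5 members was called over control, where 14.7% of the genes were called. Ilp6 was 1.58-fold (1.30 to 1.91), chico 1.29-fold (1.19 to 1.40), foxo 1.28-fold (1.20 to 1.38), ImpL2 1.16-fold and Thor 1.13-fold higher. Against BskDN, at 6 and 11 days, Thor was 2.84-fold higher in scrib BskDN (2.60 to 3.10) and Ilp6 2.38-fold lower (2.08 to 2.74), with 2 members called beside 10.8% of the genes. The fat body sum was 691 CPM in scrib BskDN, against 5525 CPM in BskDN. The comparisons over control share the control library, and those that share another library are likewise not independent of each other.

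Of the 9 ligands and binding proteins, Ilp6 and ImpL2 included, 6 passed the filter. In day 11 over control 3 of these were higher and 0 lower, with a median log2 fold of 3.06, or 2.68 with genes at 0 counts in 1 library set to the floor of 3 counts. Over all genes considered the median was -0.02, and calls were higher for 10.7% and lower for 7.22%. The higher genes were ImpL2, Ilp2 and Ilp3, of which Ilp2 and Ilp3 had 1 count each in control. The list median lay between ImpL2 (2.20) and Ilp5 (3.93), and Ilp5 had 0 counts in control. Ilp2, Ilp3 and Ilp5 passed the filter only through libraries other than control, which favours a high list median over control. That median is therefore no result about the list. Sdr, a secreted decoy of the insulin receptor, was at 47.9 CPM in RasV12, 42.4 CPM in BskDN, 29.5 CPM in scrib BskDN, 32.5 CPM in RasV12 scrib BskDN, 25.5 and 27.3 CPM in RasV12 scrib day 7 and day 11, 21.5 CPM in the wing discs and 26.9 CPM in control, and was not called in any comparison. Ilp2, made by the insulin-producing neurons of the brain, was at 14.5 CPM in scrib BskDN, 6.25 CPM in RasV12 scrib BskDN and 6.53 CPM in RasV12 scrib day 11, against 0.0537 CPM in control, which is 1 count. Ilp3, from the same neurons, was at 6.78 CPM in RasV12 scrib day 11, and Ilp5 reached 4.02 CPM in scrib BskDN. In the wing discs Ilp2 was at 5.56 CPM and Ilp3 at 6.59 CPM.

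Ilp2, Ilp3 and Ilp5 were all at under 1 CPM in RasV12, BskDN and control. With so few control counts the folds are wide: 271-fold for Ilp2 in scrib BskDN over control, with an interval of 48.2 to 10723. Akh, made by the corpora cardiaca, was at 55.3 CPM in scrib BskDN and 0.848 CPM in BskDN, against 37.4 CPM in control. The sum of 10 neuron markers was 733 CPM in scrib BskDN, 446 CPM in RasV12 scrib BskDN and 808 CPM in RasV12 scrib day 11, against 297 CPM in control, and the part of brain or gland RNA in these levels was not tested.

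Of 12 genes from the receptor to Akt and Foxo, 11 were matched, and Pdk1, the kinase that activates Akt, was the only gene of the list called in any of the 12 comparisons. It was at 250 CPM in scrib BskDN, against 82.8 CPM in control, 3.02-fold (2.85 to 3.19), and at 175 CPM in RasV12 scrib BskDN, 2.11-fold over control (1.99 to 2.24). This is 1 of 11 genes in each of these comparisons. Of all genes considered, 14.7% were called in scrib BskDN over control and 8.76% in RasV12 scrib BskDN over control. The median log2 fold of the 11 genes ran from -0.30 to 0.38 over the 12 comparisons, beside -0.02 to 0.06 over all genes.

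The branch through TOR, the kinase that couples nutrients to growth and acts on Thor, had 21 of 24 genes matched. Tor itself, Lst8 and S6k were not matched, so the list values leave them out. In RasV12 scrib day 7 over control 3 were higher and 1 lower, where 3.33% of all genes considered were higher and 7.98% lower. mnd, an amino acid transporter, was at 195 CPM, against 60.4 CPM in control, 3.23-fold (3.02 to 3.46). REPTOR, a transcription factor that acts when TOR is inhibited, was at 84.6 CPM, against 29.4 CPM in control, 2.88-fold (2.62 to 3.18). Myc was 2.08-fold higher, and Sesn, the stress-induced sestrin, 2.29-fold lower.

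At day 11 over control, 4 of the 21 were higher and 1 lower, where 10.7% of all genes considered were higher and 7.22% lower. mnd was 3.85-fold, REPTOR 3.45-fold, Thor 3.76-fold and Myc 2.16-fold higher, and slif, another amino acid transporter, was 2.78-fold lower. In RasV12 scrib BskDN over RasV12 scrib day 7, REPTOR was 3.92-fold lower (3.53 to 4.36), at 21.6 CPM in RasV12 scrib BskDN against 84.6 CPM in day 7, mnd 2.06-fold lower and Thor 4.76-fold lower, while Sesn was 2.69-fold and chrb 2.19-fold higher. Thus 2 were higher and 3 lower of 21, where 6.85% of all genes considered were higher and 4.20% lower. The list medians over the 12 comparisons ran from -0.04 to 0.13 on the log2 scale.

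Known targets of Foxo and genes of the fasting response had 12 of 13 genes matched. In day 11 over control 5 were higher and 0 lower, with a median log2 fold of 0.74, beside -0.02 over all genes, of which 10.7% were called higher and 7.22% lower. daw, the Activin-like ligand Dawdle that Foxo represses in muscle, was at 181 CPM in day 11, against 4.73 CPM in control, 38.2-fold (30.9 to 47.8). Pepck1, a gluconeogenic enzyme, was at 1180 CPM, against 302 CPM in control, 3.91-fold (3.80 to 4.02). The others were Thor, the lipase gene Lip4 at 2.99-fold, and Myc. Thor, Myc and Sesn are also in the TOR list, so their calls count in both. The list holds genes that Foxo switches on, such as Thor, beside daw. Its counts and median are therefore not a measure of Foxo activity.

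In day 7 over control 3 of the 12 were higher and 2 lower, beside 3.33% of all genes higher and 7.98% lower. daw was at 47.5 CPM, against 4.73 CPM in control, 10.1-fold (8.08 to 12.7), Pepck1 was 2.21-fold and Myc 2.08-fold higher, while NLaz, a lipocalin, was 2.76-fold and Sesn 2.29-fold lower. In RasV12 scrib BskDN over RasV12 scrib day 7, daw was 6.13-fold lower (5.19 to 7.29), at 7.75 CPM in RasV12 scrib BskDN against 47.5 CPM in day 7, and NLaz 15.5-fold higher (11.3 to 22.0). Over control, NLaz was at 29.6 CPM in RasV12 scrib BskDN and at 22.9 CPM in BskDN, against 5.26 CPM in control. bmm, a triglyceride lipase, was at 44.1 CPM in scrib BskDN, against 8.81 CPM in control.

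**Figure D4:**
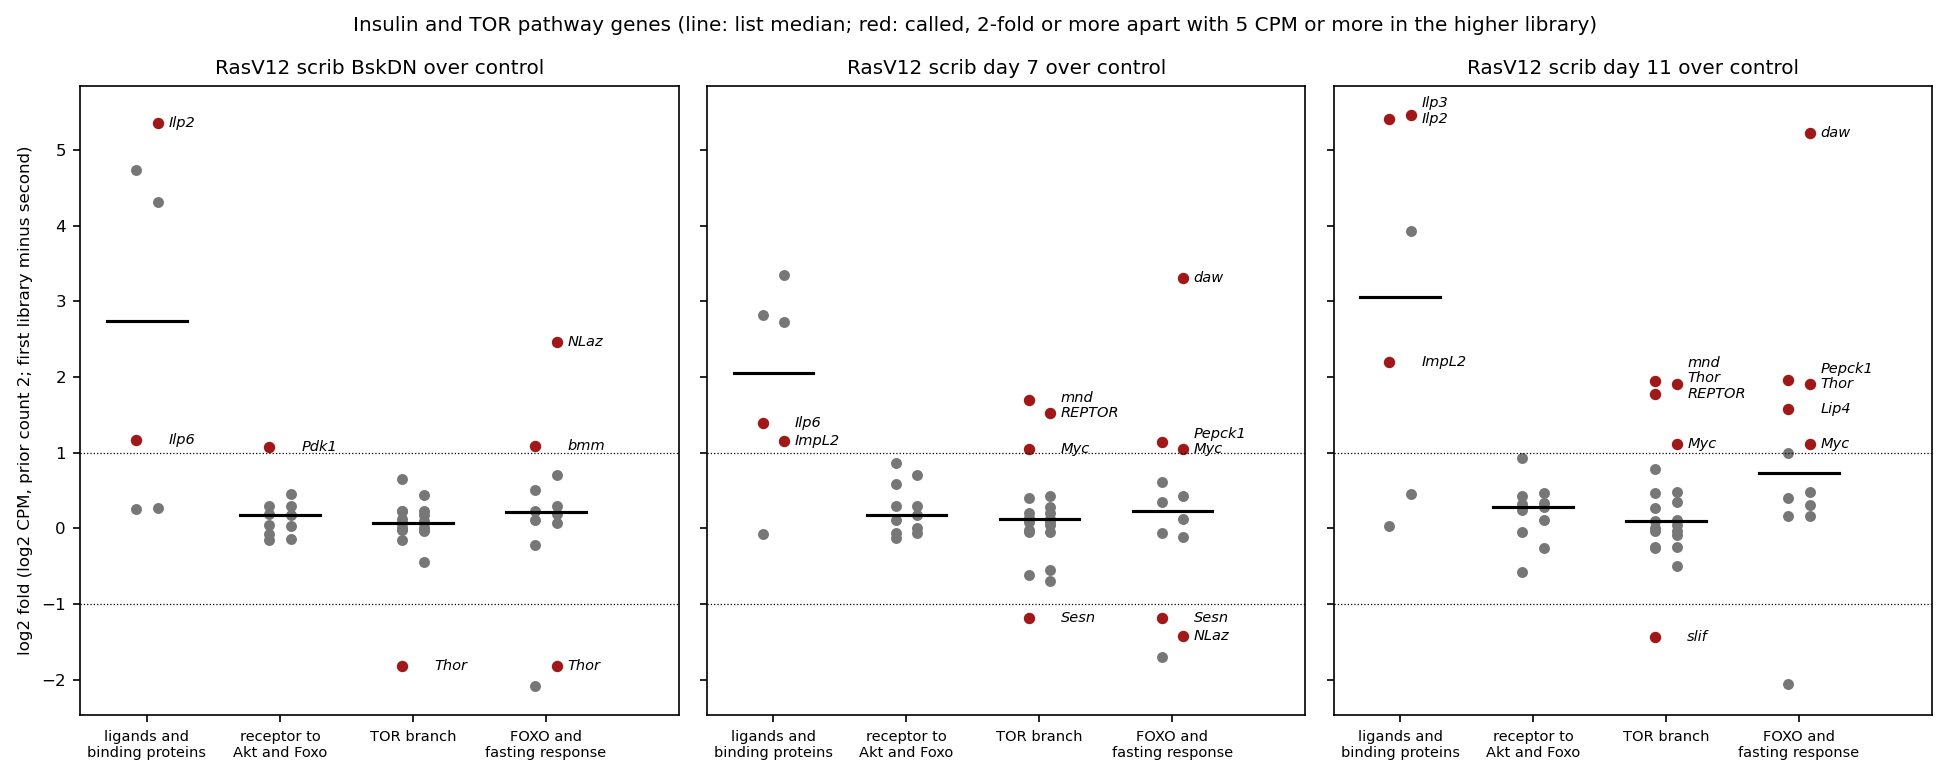
Log2 fold of every matched gene considered in 4 insulin and TOR lists, in RasV12 scrib BskDN, RasV12 scrib day 7 and RasV12 scrib day 11, each over control, with the list median as a line and called genes in red. The median of the receptor to Akt and Foxo list is 0.17, 0.17 and 0.28 in the 3 panels, while daw reaches a log2 fold of 5.23 in RasV12 scrib day 11.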

How the data were processed

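RNA was measured in 7 eye-antennal libraries and 1 wing disc library, 1 per group. The authors deposited raw read counts per gene in 1 table, with FlyBase identifiers. Per the submitters' processing notes, TopHat2 and HTSeq were used. Of these, and of the build, annotation and strand setting, no version or value was found in the labels. Tally rows were left out: reads in no gene were 3.41 to 7.33%, ambiguous reads 1.46 to 1.83% and reads not aligned uniquely 14.8 to 27.8%.

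Identifiers were joined to a BDGP6 annotation, and 14639 (95.4%) had a name. Scaling was by TMM (edgeR 4.0.16, R 4.3.3), and log2 CPM had a prior count of 2. Each comparison set 1 library against another. A call needed a 2-fold difference and 5 CPM in the higher library. The genes considered, 10029, reached 1 CPM in some library. A count of 3 is the floor, worth 0.142 to 0.181 CPM. Intervals were computed with scipy 1.17.1. Per-kilobase levels used the union of exons. The intervals and the 2-fold call were tried on simulated Poisson counts, with a small fixed offset in place of the prior count. Such counts hold counting error only, so this says nothing of variation between replicates. Named were the members, called list genes (at most 4 a list and comparison), and for members at least 2-fold apart the 3 genes with the most similar pattern. Myc in day 7 and day 11 over control and mnd in RasV12 scrib BskDN over day 7 were named past that limit, after their values were seen. Alternatives were other scalings, prior count, filters and thresholds, and scaling without the wing library, added after seeing the data. Members and lists were chosen with earlier results of these data known.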

Additional observations from a re-analysis of the deposited data

Results flagged for a closer look

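Ilp6 in the scrib wing discs was flagged in a library that enters no comparison: it was at 24.2 CPM there, against 9.18 CPM in control. This lies within the eye-antennal range, from 4.52 CPM in RasV12 to 34.5 CPM in BskDN, and RasV12 scrib day 7 was also at 24.2 CPM. The library has no wing control and differs from the eye-antennal libraries in tissue and in whole-animal genotype, so that these cannot be told apart.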

How the results depend on the processing

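The number of members called in each of the 12 comparisons was the same under a prior count of 0.5, both filters on genes, and scaling without the wing library. Under median-of-ratios scaling and under total counts alone it was the same but for day 7 over RasV12, where 3 were called in place of 2. Under upper quartile scaling 0 were called in RasV12 over control. At 1.5-fold, 1 was called in scrib BskDN over control, 2 in RasV12 scrib BskDN over RasV12 scrib day 7, and 3 each in day 11 over day 7 and in day 7 over RasV12. At 4-fold, 1 was called in day 11 over control, in day 7 over RasV12 and in RasV12 scrib BskDN over RasV12, and 0 in RasV12, BskDN, RasV12 scrib BskDN and day 7 each over control, in day 11 over day 7, in RasV12 scrib BskDN over scrib BskDN and in scrib BskDN over BskDN. The called genes per comparison, of the 10029 considered, were 465 to 1800 at 2-fold, 889 to 2702 at 1.5-fold and 184 to 991 at 4-fold. These are ranges over the 12 comparisons. The member counts at 1.5-fold and 4-fold thus stand without the share of their own comparison and are no result about the members. Of 60 member folds, 1 changed sign under upper quartile scaling and 1 under total counts, the uncalled ImpL2 fold in RasV12 scrib BskDN over scrib BskDN. Total counts alone moved the median log2 fold of all genes to -0.11 in that comparison and to 0.13 in scrib BskDN over BskDN. No paired analysis was possible because each group has 1 library, and for the same reason no replicate could be left out. Depth limits Ilp2, Ilp3 and Ilp5 in control, where at most 1 count was seen.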

Other observations

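For the members that varied at least 2-fold, the genes with the most similar pattern over the 8 libraries were found by the root mean square difference of centred log2 CPM. Nearest to ImpL2 were puml, a lipid hydrolase gene (0.19), CG30022 (0.21) and Nmdmc, a folate enzyme gene (0.24). puml was at 49.5 CPM in RasV12 scrib day 7 and 130 CPM in RasV12 scrib day 11, against 30.7 CPM in control. Nmdmc was at 127 and 175 CPM in the same RasV12 scrib libraries, against 56.6 CPM in control. Nearest to Thor were pirk, an inhibitor of the Imd immune pathway (0.40), Mrp4, a transporter gene (0.42), and CG31808 (0.45). pirk was at 31.7 CPM in RasV12 scrib day 11 and 0.969 CPM in RasV12 scrib BskDN, against 4.19 CPM in control. Nearest to Ilp6 were Pvr, the PDGF- and VEGF-related receptor (0.42), lncRNA:CR43496 (0.49) and RhoL (0.56). Pvr was at 75.3 CPM in RasV12 and 309 CPM in BskDN, against 163 CPM in control. It was at 218 and 231 CPM in RasV12 scrib day 7 and day 11, where Ilp6 was at 24.2 and 12.6 CPM. Nearest to foxo were insv (0.08), didum (0.11) and Cad99C (0.12). Over the 7 eye-antennal libraries alone, other genes were nearest to ImpL2: CG2017 (0.13), a gene without a name in the annotation (0.16) and Alr (0.19). There pirk and Mrp4 remained the nearest to Thor and Pvr the nearest to Ilp6, and foxo, at 1.92-fold between its highest and lowest library, fell short of the 2-fold limit. Likeness over so few libraries describes these libraries and says nothing of shared control.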
